A study of Mus musculus with 9 samples.

Results

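The insulin-like growth factor (IGF) system was followed here as 10 genes picked by name: the ligands Igf1 and Igf2, the receptors Igf1r and Igf2r, and the binding proteins Igfbp2 to Igfbp7. The rule used no measured value, but the genes were chosen with earlier results of these data known. All 10 genes were among the 24537 gene names of the table that compares sham quadriceps with sham heart. In the table of TAC against sham quadriceps, which the authors limited to 587 genes of secreted and extracellular proteins, 8 of the 10 were listed, and Igf1r and Igfbp2 were not analysed there.

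IGF1 and IGF2 are small secreted proteins related to insulin. IGF1 acts through the tyrosine kinase receptor encoded by Igf1r and is known in skeletal muscle for driving fibre growth through the Akt and mTOR pathway, whereas the receptor encoded by Igf2r takes up IGF2 for degradation in lysosomes and sorts lysosomal enzymes. The IGF binding proteins hold the ligands in blood and in the extracellular matrix and can limit or prolong their action, with IGFBP7 binding IGFs only weakly.

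The study asked which secreted factors of skeletal muscle change during heart failure with wasting. C57Bl6 mice (male C57Bl/6JCrl mice by the methods), 8 weeks old at surgery, underwent transverse aortic constriction (TAC), in which the aortic arch is narrowed around a 27 gauge needle so that the left ventricle works against a raised pressure, or a sham operation. RNA was sequenced 12 weeks later from the quadriceps of TAC mice, from the quadriceps of sham mice and from the heart of sham mice, with 3 libraries in each group. The labels name no transgene or drug in any group, hearts after TAC were not analysed here, and the labels number the libraries as replicates without naming mice, so p-values measure the spread between these libraries.

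The library totals ranged from 23383452 to 48999600 counts over transcripts, and the 3 sham quadriceps libraries had the lowest totals of the 8 libraries whose total was used. On the genes of the TAC table the sham libraries held 689630 to 1006148 counts and the TAC libraries 1166978 to 1326011, so sequencing depth and surgery cannot be told apart. All 7 muscle fibre markers were higher in sham quadriceps and all 6 cardiomyocyte markers were higher in sham heart, and in sham quadriceps the cardiomyocyte markers summed to 269 to 347 normalized counts against 979362 to 1069800 in heart. One TAC column carries the number 4 where the labels run to 3; it is called TAC library 4 here.

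Differences were tested with the quasi-likelihood test of edgeR and Benjamini-Hochberg adjustment over all genes or transcripts of a table, and these values are given as edgeR adjusted p, with 0.05 as the threshold. Normalized counts are counts divided by a library's TMM-scaled size, and TMM centres the genes of a table on each other. A second scaling divided by library totals, for which 5 libraries were available in the TAC comparison. Over the 586 tested genes of the TAC table the median log2 fold change came to 0.03 with TMM and -0.63 with library totals. In the comparison of tissues the median of the 24280 tested transcripts was -0.06 with TMM and -0.80 with library totals. Values with library totals therefore stand beside those of the IGF genes, and beside those of other genes where the call was lost.

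In TAC quadriceps Igf1 and Igfbp3 were called and Igfbp5 met the criterion of the study, and the promoter windows of these 3 genes are shown so that the sequence at their start sites can be read beside the values. Each window is the RefSeq entry on GRCm38.p6, from 250 bases before to 50 bases after the start, written 5′ to 3′ along the gene. They lie at chr10:87860861-87861160 on the plus strand for Igf1, at chr11:7213874-7214173 on the minus strand for Igfbp3 and at chr1:72874816-72875115 on the minus strand for Igfbp5.
Igf1: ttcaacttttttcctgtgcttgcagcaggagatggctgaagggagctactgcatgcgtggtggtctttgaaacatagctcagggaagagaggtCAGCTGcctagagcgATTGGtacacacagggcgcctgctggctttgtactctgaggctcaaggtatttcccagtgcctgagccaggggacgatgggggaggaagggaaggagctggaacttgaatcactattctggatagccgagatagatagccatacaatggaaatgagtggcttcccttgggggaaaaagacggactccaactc
Igfbp3: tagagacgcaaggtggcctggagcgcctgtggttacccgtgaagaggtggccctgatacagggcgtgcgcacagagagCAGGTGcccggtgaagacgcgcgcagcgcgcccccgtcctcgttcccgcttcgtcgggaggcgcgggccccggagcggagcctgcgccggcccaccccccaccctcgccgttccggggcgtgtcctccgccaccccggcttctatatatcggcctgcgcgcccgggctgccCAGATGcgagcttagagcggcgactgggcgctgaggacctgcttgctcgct
Igfbp5: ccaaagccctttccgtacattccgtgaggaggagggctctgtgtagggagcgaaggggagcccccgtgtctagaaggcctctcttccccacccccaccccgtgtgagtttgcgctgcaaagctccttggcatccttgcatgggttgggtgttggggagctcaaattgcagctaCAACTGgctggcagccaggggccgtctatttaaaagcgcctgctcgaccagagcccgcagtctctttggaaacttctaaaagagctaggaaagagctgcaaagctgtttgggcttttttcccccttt
Capitals mark matches, on either strand, to the TATA box (TATAAA), the GC box (GGGCGG), the CCAAT box (CCAAT), a forkhead core (GTAAACA) and the E-box (CANNTG), and no 2 matches overlap in these 3 windows. The Igf1 window held an E-box and a CCAAT box on the opposite strand, and the windows of Igfbp3 and Igfbp5 held E-boxes alone. Over the 14 windows listed for the 10 genes, 10 held an E-box, 6 a GC box, 3 a CCAAT box, 2 a TATA box and 0 the forkhead core. Of all 32851 promoter windows of the same length, 72.3% held an E-box, 35.7% a GC box, 37.4% a CCAAT box, 13.6% a TATA box and 3.65% the forkhead core. The Igf1 window lies inside the gene model, downstream of its first start site. The guanine and cytosine content was 52.3% for Igf1, 71.7% for Igfbp3 and 56.3% for Igfbp5. A match is a string of letters and not a bound site, and no binding was measured.

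In TAC quadriceps the transcript of 1 ligand, Igf1, was lower and that of 1 binding protein, Igfbp3, was higher, and the other 6 listed genes did not pass the adjusted threshold with TMM. Of all tested genes, 17.7% were called higher and 11.9% lower. The 8 genes had a median log2 fold change of 0.07, against 0.03 for all 586. With library totals Igfbp3 was higher, and Igf1 and Igfbp7 were lower, where 3.41% of all genes were called higher and 30.7% lower. The groups did not overlap in normalized counts for 4 of the 8 genes, Igf1, Igf2r, Igfbp3 and Igfbp5, against 47.3% of all tested genes. The criterion of the study was an absolute log2 fold change of 1 or more together with p under 0.05 before adjustment. By it Igfbp3 was higher and Igfbp5 lower, where 11.4% and 12.6% of all genes passed in these directions.

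**Figure D1:**
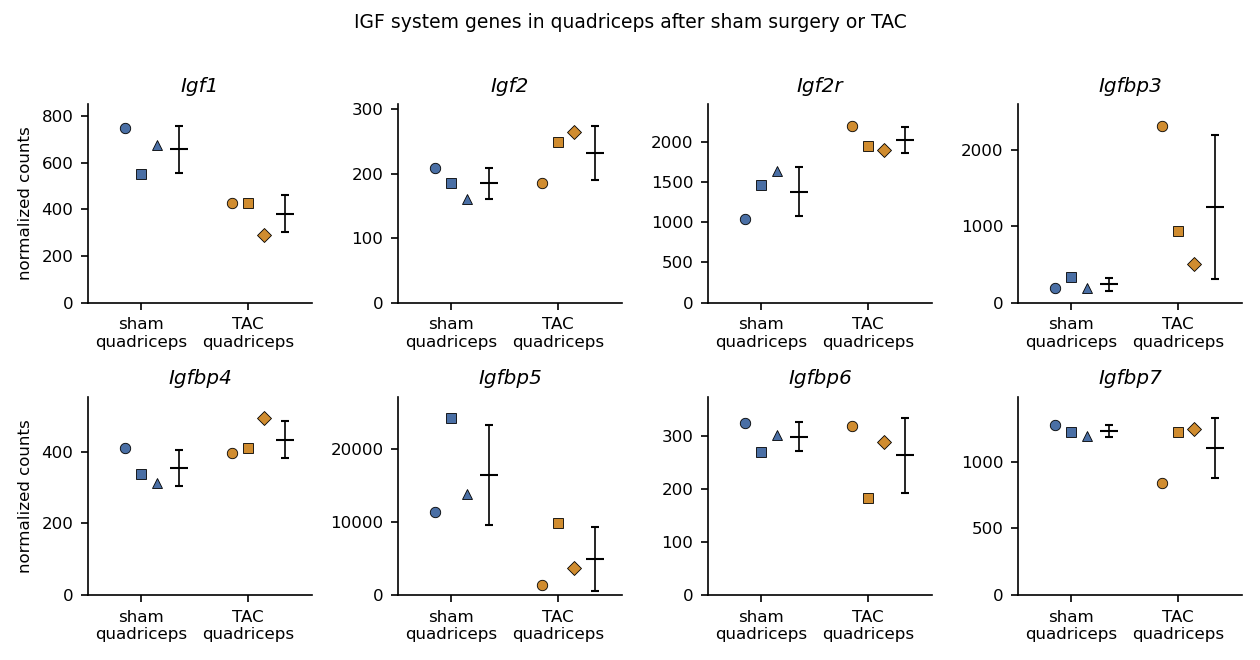
Normalized counts (TMM, linear axis from 0) of the 8 listed IGF system genes in sham (blue) and TAC (orange) quadriceps. Each point is a library (circle 1, square 2, triangle 3, diamond TAC library 4) and the bar beside the points is the mean with its SD (n = 3); the points of Igf1, Igf2r, Igfbp3 and Igfbp5 do not overlap between the groups.

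Among the ligands, Igf1 (chr10:87858265-87937042 on GRCm38, transcript NM_001111275 with 4 exons) stood at 750, 551 and 675 normalized counts in sham libraries 1, 2 and 3, and at 428, 426 and 289 in TAC libraries 1, 2 and 4. Every TAC library was below every sham library, and TAC library 4 was the lowest. The mean went from 659 ± 101 (SD, n = 3) to 381 ± 79.4 (SD, n = 3), a log2 fold change of -0.79 with an SE of 0.25 and an edgeR adjusted p of 0.043. With library totals it was -1.29 (SE 0.30, edgeR adjusted p = 0.016). The call depended on single libraries, since the edgeR adjusted p was 0.064 without TAC library 4, 0.136 without sham library 1, 0.074 without sham library 2 and 0.139 without sham library 3, at log2 fold changes of -0.71, -0.72, -0.90 and -0.77. Igf1 overlaps the gene Igf1os on the opposite strand, and the use of strand in the counting was not given in the sources used here.

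Igf2 (chr7:142650766-142666816, minus strand), the fetal growth factor of the pair, had 209, 185 and 161 normalized counts in sham libraries 1 to 3 and 185, 249 and 264 in TAC libraries 1, 2 and 4. The groups overlapped, since TAC library 1 lay between the sham values. The log2 fold change was 0.33 (SE 0.24, edgeR adjusted p = 0.348) with TMM and -0.43 (SE 0.31, edgeR adjusted p = 0.289) with library totals. The value with library totals leaves out TAC library 4, and without that library the log2 fold change with TMM was 0.13. On the same libraries the sign thus still differed between the scalings. Its locus also holds Gm49394 and Mir483 on the same strand and Igf2os on the other.

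The ratio of the ligands within a library does not depend on the scaling. Per transcript length, Igf1 was 1.85, 1.53 and 2.16 times Igf2 in the sham quadriceps libraries and 1.19, 0.880 and 0.563 times Igf2 in TAC libraries 1, 2 and 4. The ranges did not overlap, with Igf1 above Igf2 in every sham library and below it in TAC libraries 2 and 4. These ratios are descriptions with no test.

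Of the receptors, Igf2r (chr17:12682406-12769664, minus strand, 48 exons in NM_010515) had 1040, 1458 and 1640 normalized counts in sham libraries 1 to 3 and 2201, 1942 and 1903 in TAC libraries 1, 2 and 4. The 3 TAC values were above the 3 sham values, but the difference did not pass the threshold, with a log2 fold change of 0.55 (SE 0.22, edgeR adjusted p = 0.095). It was -0.03 (SE 0.21, edgeR adjusted p = 0.911) with library totals. Igf2r overlaps Airn, a long non-coding RNA of the opposite strand.

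Igfbp3, the main carrier of IGFs in blood, had the largest rise of the 8 genes. It lies at chr11:7206086-7213923 on the minus strand, and transcript NM_008343 has 5 exons. Sham libraries 1 to 3 held 198, 342 and 187 normalized counts, and TAC libraries 1, 2 and 4 held 2320, 940 and 510. TAC library 1 was far above the other TAC libraries, and the lowest TAC library was above the highest sham library. The mean went from 242 ± 86.4 to 1257 ± 946 (SD, n = 3 each), 5.19-fold higher by the fit, with a log2 fold change of 2.37 (SE 0.54, 95% interval 1.14 to 3.61, edgeR adjusted p = 0.017). With library totals it was 2.13 (SE 0.42, edgeR adjusted p = 0.011). Without TAC library 1 it was 1.51, at an edgeR adjusted p of 0.025. The edgeR adjusted p missed the threshold without sham library 1 (0.081, log2 fold change 2.22) and without sham library 3 (0.052, log2 fold change 2.22).

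Igfbp5, which binds to extracellular matrix and is a major binding protein of skeletal muscle, had the largest fitted decrease of the 8 genes, at chr1:72857932-72874884 on the minus strand (NM_010518, 4 exons). The sham libraries held 11295, 24202 and 13806 normalized counts, and TAC libraries 1, 2 and 4 held 1362, 9845 and 3668. TAC library 1, which had the most Igfbp3, had the least Igfbp5, and TAC library 2 came close to the lowest sham library without reaching it. The log2 fold change was -1.73 (SE 0.64, 95% interval -3.18 to -0.28) with an unadjusted p of 0.025 and an edgeR adjusted p of 0.072, so it met the criterion of the study but not the adjusted threshold. With library totals it was -2.17 (SE 0.73, edgeR adjusted p = 0.055). It passed with DESeq2 (adjusted p = 0.0062, log2 fold change -1.76) and without TAC library 2 (edgeR adjusted p = 0.0097, log2 fold change -2.71), and it was -1.34 without sham library 2 (edgeR adjusted p = 0.216). The study singled out this gene on the same libraries, so its direction here is not independent evidence.

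The other binding proteins did not pass the threshold with TMM. Igfbp4 (chr11:99041244-99054392), which is released from IGFs when the protease PAPP-A cleaves it, had 409, 339 and 312 normalized counts in sham libraries 1 to 3 and 397, 409 and 494 in TAC libraries 1, 2 and 4. Its log2 fold change was 0.29 (edgeR adjusted p = 0.359) with TMM and -0.47 (edgeR adjusted p = 0.227) with library totals, with overlapping groups. Igfbp6 (chr15:102144362-102149511), which prefers IGF2 over IGF1, had 324, 270 and 302 normalized counts in sham and 318, 183 and 288 in TAC libraries 1, 2 and 4. Here TAC library 2 alone was below the sham range, and the log2 fold change was -0.18 (edgeR adjusted p = 0.632), or -0.91 (edgeR adjusted p = 0.072) with library totals.
Igfbp7 (chr5:77349240-77408041, minus strand) was nearly level in sham libraries 1 to 3, at 1278, 1221 and 1191 normalized counts, and had 844, 1222 and 1247 in TAC libraries 1, 2 and 4. TAC library 1 was the one value outside the sham range. The log2 fold change was -0.16 (SE 0.21, edgeR adjusted p = 0.611) with TMM, and with library totals it was -0.90 (SE 0.25, edgeR adjusted p = 0.032), which passed the threshold. Igfbp7 overlaps Polr2b and Gm34648 on the opposite strand.

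**Figure D2:**
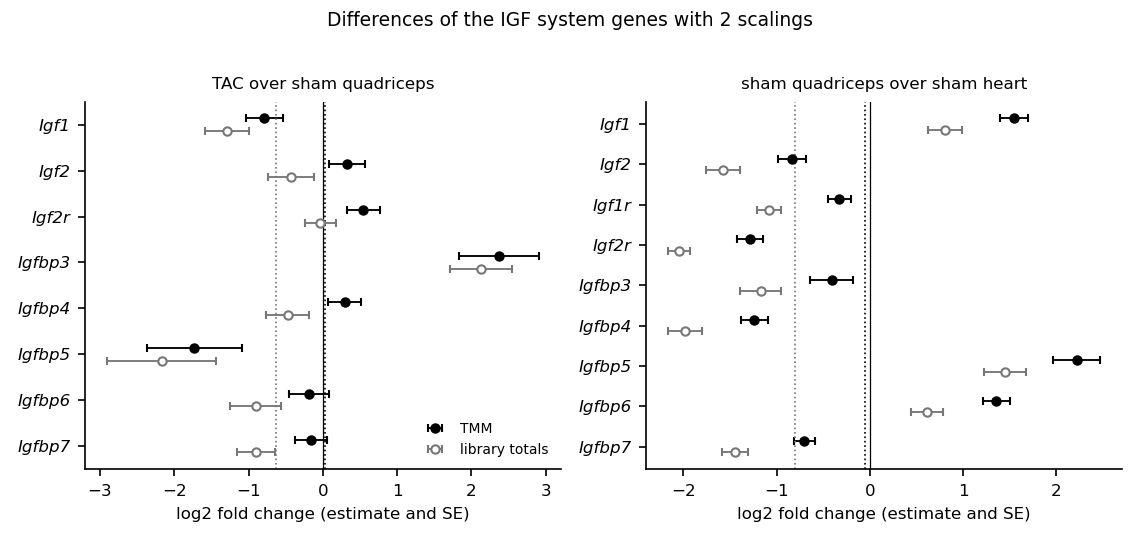
Log2 fold changes (x axis) with their SE for the IGF system genes, TAC over sham quadriceps on the left and sham quadriceps over sham heart on the right. Filled points use TMM, open points library totals (5 libraries for TAC), the solid line marks 0 and the dotted lines mark the median of all tested genes or transcripts under each scaling. Igf2, Igf2r and Igfbp4 change sign with the scaling on the left, and no gene changes sign on the right.

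Shares within a library, which no scaling affects, show how the makeup of the binding protein transcripts differed. Counts per transcript length were summed over Igfbp3 to Igfbp7, and Igfbp5 took 54.8%, 73.0% and 61.9% of this sum in sham quadriceps libraries 1 to 3. In TAC libraries 1, 2 and 4 its share was 10.01%, 49.1% and 26.9%. No TAC library reached the lowest sham share. Igfbp3 took 2.30%, 2.48% and 2.01% in sham quadriceps and 41.0%, 11.3% and 8.96% in TAC libraries 1, 2 and 4. In TAC library 1 Igfbp3 was thus the most abundant of these 5 transcripts per length, at 4.09 times Igfbp5, where the ratio was 0.0325 to 0.0420 in sham quadriceps and 0.229 and 0.334 in the other TAC libraries. Without TAC library 1 the mean Igfbp3 share in TAC was 10.1% instead of 20.4%, and the mean Igfbp5 share was 38.0% instead of 28.7%. Without TAC library 2 the mean Igfbp5 share was 18.4%. The share of Igfbp7 was 30.1%, 17.9% and 25.9% in sham quadriceps and 30.1%, 29.6% and 44.3% in TAC libraries 1, 2 and 4, with overlap. These shares are descriptions with no test, since the genes of a sum are not independent.

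**Figure D3:**
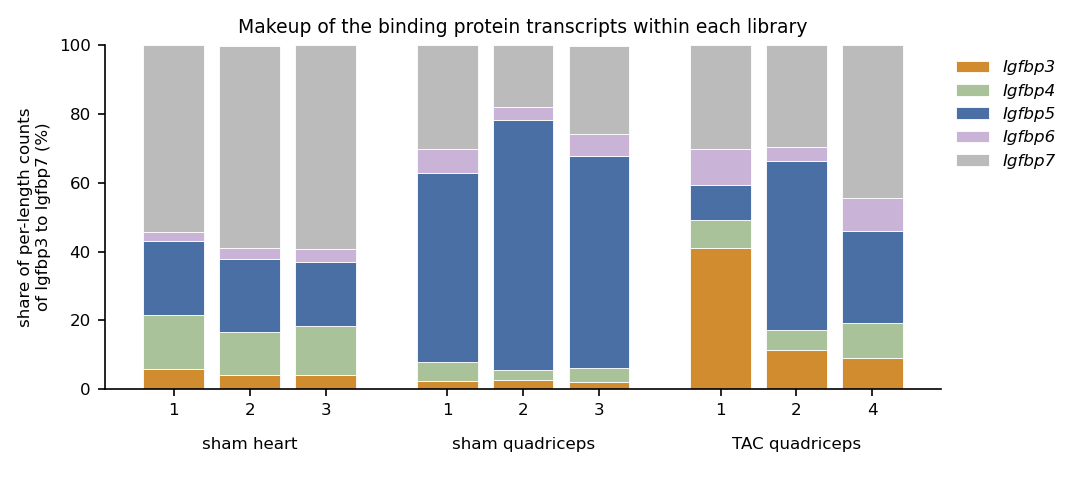
Share of each binding protein gene (y axis, percent) in the summed per-length counts of Igfbp3 to Igfbp7, 1 bar for each of the 9 libraries, numbered within their group. Igfbp5 makes up 54.8% to 73.0% of the sham quadriceps bars and 10.01% to 49.1% of the TAC bars, and Igfbp3 makes up 41.0% of the bar of TAC library 1.

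Binding protein against ligand, the sum of Igfbp3 to Igfbp7 was 21.5, 44.0 and 27.3 times the sum of Igf1 and Igf2 per length in the sham quadriceps libraries and 20.9, 26.6 and 20.5 times in TAC libraries 1, 2 and 4. These ranges overlapped. The ratio of Igf1 to Igfbp3 did not overlap, at 1.31, 0.556 and 1.24 in sham and 0.0636, 0.156 and 0.196 in TAC libraries 1, 2 and 4.

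The list of other IGF availability genes, which holds carriers, proteases and protease inhibitors that set how much IGF is free, had 5 of its 12 genes in the TAC table, and 0 of these passed the threshold in either direction with edgeR, 2 with DESeq2 (Htra1 and Ctsd, both higher) and 0 with limma on RPKM. By the unadjusted p of the edgeR test 3 were under 0.05: Stc1, Htra1 and Ctsd, which were looked at after their values were seen. The share of all tested genes under 0.05 by unadjusted p, or called with DESeq2, is not given here. These counts can therefore not be set against all genes. Stc1 was low, at 8.94, 14.1 and 34.4 normalized counts in sham and 41.6, 93.9 and 22.0 in TAC libraries 1, 2 and 4. Its groups overlapped, and its log2 fold change was 1.52 (edgeR adjusted p = 0.109), or 1.26 (edgeR adjusted p = 0.119) with library totals. Htra1, a secreted serine protease, had 263, 392 and 268 normalized counts in sham libraries 1 to 3 and 1259, 446 and 477 in TAC libraries 1, 2 and 4. Its groups did not overlap, TAC library 1 was highest as for Igfbp3, and its log2 fold change was 1.24 (edgeR adjusted p = 0.057), or 0.85 (edgeR adjusted p = 0.144) with library totals. Ctsd, the lysosomal protease cathepsin D, was at 0.96 (edgeR adjusted p = 0.057) with TMM and 0.01 with library totals. Ghr, the growth hormone receptor that acts upstream of Igf1, was the single gene of the growth hormone axis in the table, with a log2 fold change of -0.08 (edgeR adjusted p = 0.838). None of the insulin and IGF receptor signalling genes, the IGF mRNA binding proteins or the CCN genes was in this table.

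Markers of other cell types moved with the same comparison, where 17.7% of all tested genes were called higher and 11.9% lower with TMM. Of the fibroblast list 6 of 7 genes were in the table and 5 of them fell. The largest falls were those of Col3a1, at a log2 fold change of -3.95 (edgeR adjusted p = 0.00056), and Col1a1, at -3.31 (edgeR adjusted p = 0.00056). Dcn did not fall, at 0.17 (edgeR adjusted p = 0.601), with means of 6474 normalized counts in sham and 7301 in TAC. The sum of all 6 genes, of which Dcn was a large part, was 10161 to 13026 in sham and 6156 to 9283 in TAC. Of the leukocyte list 3 of the 4 tested genes fell, with sums of 727 to 978 in sham and 347 to 426 in TAC. Both tested endothelial genes were higher with TMM and neither with library totals, and their sums were 917 to 1048 in sham and 1504 to 1589 in TAC. The adipocyte sums overlapped, at 315 to 2302 in sham and 415 to 2860 in TAC, and none of the markers tested here was at 0 in a whole group. In bulk tissue fewer cells of a type and less RNA per cell cannot be told apart, and the part of these markers in the values of Igf1 and of the binding proteins was not tested.

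The genes most alike to Igfbp5 across the 6 quadriceps libraries were Ssc5d, Ostn and Wnt5a, by the root-mean-square distance of mean-centred log2 normalized counts, at 0.512, 0.515 and 0.555. Ssc5d is a secreted scavenger receptor protein, Ostn encodes the muscle hormone musclin, and Wnt5a is a Wnt ligand. Ostn had 89.4, 133 and 103 normalized counts in sham and 22.3, 98.8 and 42.1 in TAC libraries 1, 2 and 4, so that its lowest and highest TAC library were those of Igfbp5. The groups of Ostn overlapped, and its log2 fold change of -0.996 with TMM did not pass the threshold (edgeR adjusted p = 0.152). TMM centres on the listed genes only, and the value of Ostn with library totals is not given here. The study reported a larger decrease of Ostn in this sequencing. It also found less Ostn by qPCR and less Musclin protein by Western blotting, immunostaining and in plasma, which were not analysed here. For Igf1 the nearest genes were Crispld1, Plat and Anxa5, at distances of 0.0907, 0.0949 and 0.111. Plat, the tissue plasminogen activator, had 99.2, 74.8 and 96.2 normalized counts in sham and 63.0, 66.5 and 45.1 in TAC libraries 1, 2 and 4. The measure is a description over 6 libraries with no test.

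Between the sham tissues, 8 of the 9 tested genes differed. Igf1, Igfbp5 and Igfbp6 were higher in quadriceps, and Igf2, Igf1r, Igf2r, Igfbp4 and Igfbp7 were lower there than in heart, whereas Igfbp3 did not pass with TMM. Over all 24280 tested transcripts 32.2% were called higher and 34.4% lower, so most transcripts differed between these tissues. With library totals the 3 higher genes stayed higher and the other 6 were lower, against 13.3% higher and 62.6% lower of all transcripts. The 9 genes had a median log2 fold change of -0.41 with TMM. The normalized counts did not overlap for 8 of the 9, against 72.6% of all transcripts. The study's criterion for muscle-enriched factors was a log2 fold change above 2 together with p under 0.05 before adjustment, and Igfbp5 alone passed, as did 7.00% of all transcripts. This comparison uses the same 3 sham quadriceps libraries as that with TAC, so the comparisons are not independent.

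Igf1 had 356, 330 and 327 normalized counts in heart libraries 1 to 3 and 1186, 796 and 970 in sham quadriceps libraries 1 to 3. The heart libraries were nearly level and far below every quadriceps library, with a log2 fold change of 1.54 (SE 0.15, edgeR adjusted p = 1.4e-05), or 2.92-fold. With library totals the log2 fold change was 0.81 (edgeR adjusted p = 0.0040). The 5 listed Igf1 transcripts share reads and gave log2 fold changes of 1.54 to 1.59.
Igf2 ran the other way, at 426, 534 and 527 normalized counts in heart and 330, 267 and 231 in quadriceps. The groups did not overlap, and the log2 fold change was -0.83 (SE 0.15, edgeR adjusted p = 0.00094), or -1.58 (edgeR adjusted p = 9.0e-05) with library totals. The 5 listed Igf2 transcripts gave -0.88 to -0.68. Per length, Igf1 was 0.317 to 0.429 times Igf2 in the heart libraries, so Igf2 was the more abundant ligand transcript in every heart library and Igf1 in every sham quadriceps library.

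For Igf1r (chr7:67952827-68233668, 21 exons in NM_010513), the receptor that carries the growth signal, the heart libraries held 586, 541 and 514 normalized counts and the quadriceps libraries 416, 386 and 508. Quadriceps library 3 came close to heart library 3, and the log2 fold change of -0.33 (SE 0.12, edgeR adjusted p = 0.039) lost its call with DESeq2 (adjusted p = 0.067) and without any 1 of 5 of the 6 libraries, all but sham quadriceps library 3 (edgeR adjusted p up to 0.138). With library totals it was -1.08 (edgeR adjusted p = 0.00011).
Igf2r had 5164, 4960 and 4771 normalized counts in heart and 1643, 2108 and 2356 in quadriceps. The normalized counts were 2.44-fold higher in heart by the fit, with a log2 fold change of -1.29 (SE 0.14, edgeR adjusted p = 2.8e-05). With library totals they were 4.13-fold higher, at -2.05 (edgeR adjusted p = 1.8e-06).

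Igfbp5 stood at 5349, 5860 and 4389 normalized counts in heart and 17855, 34989 and 19834 in quadriceps. Quadriceps library 2 was above the others, and without it the log2 fold change was below 2 at 1.86 instead of 2.22 (SE 0.25, edgeR adjusted p = 4.5e-05). With library totals it was also below 2, at 1.45 (edgeR adjusted p = 0.00053). Igfbp6 was also higher in quadriceps, at 511, 390 and 435 normalized counts against 150, 181 and 190 in heart, with a log2 fold change of 1.36 (SE 0.14, edgeR adjusted p = 2.6e-05). It was 0.62 (edgeR adjusted p = 0.011) with library totals.
Igfbp4 was lower in quadriceps, at 646, 489 and 448 normalized counts against 1362, 1211 and 1187 in heart, with a log2 fold change of -1.24 (SE 0.14, edgeR adjusted p = 5.2e-05). Igfbp7 was lower at 2020, 1765 and 1710 against 2758, 3333 and 2866 in heart, a log2 fold change of -0.70 (SE 0.11, edgeR adjusted p = 0.00047). For both, each quadriceps library was below each heart library. With library totals the log2 fold changes were -1.98 (edgeR adjusted p = 2.2e-05) for Igfbp4 and -1.45 (edgeR adjusted p = 3.1e-05) for Igfbp7.
Igfbp3 had 312, 494 and 269 normalized counts in quadriceps and 590, 457 and 388 in heart. Quadriceps library 2 lay inside the heart range, and the log2 fold change was -0.41 (SE 0.23, 95% interval -0.93 to 0.10, edgeR adjusted p = 0.138). It was called without that library, at -0.71 (edgeR adjusted p = 0.0084), and with library totals, at -1.17 (edgeR adjusted p = 0.0016).
Igfbp2 (chr1:72824503-72852474), a neighbour of Igfbp5 on chromosome 1, was barely detected, with 0 counts in each heart library and 1, 2 and 2 counts in the quadriceps libraries. All 6 values are under the floor of 3 counts, so no fold is given. The gene did not pass the count filter of the test, and it was called higher in quadriceps when no count filter was used.

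Levels per length put the genes on 1 scale. In sham heart Igfbp7 led with 92.1 ± 10.3 RPKM (counts per kilobase of transcript, scaled to the library total; SD, n = 3), before Igfbp5 at 33.0 ± 4.89, Igfbp4 at 22.6 ± 1.53 and Igf2r at 20.8 ± 0.741. Igfbp3 at 7.29 ± 1.51, Igf2 at 5.07 ± 0.659, Igfbp6 at 5.04 ± 0.640, Igf1 at 1.77 ± 0.0696 and Igf1r at 1.70 ± 0.105 RPKM followed. In this order Igf2 and Igfbp6 overlapped each other, as did Igf1 and Igf1r, and the other neighbours did not overlap.
In sham quadriceps Igfbp5 led with 90.1 ± 29.5 RPKM, before Igfbp7 at 33.7 ± 5.43. Below these came Igfbp6 at 7.71 ± 1.63, Igfbp4 at 5.71 ± 1.54, Igf2r at 5.03 ± 0.673, Igfbp3 at 3.22 ± 0.920, Igf1 at 3.10 ± 0.839, Igf2 at 1.69 ± 0.419, Igf1r at 0.806 ± 0.127 and Igfbp2 at 0.0446 ± 0.0208 RPKM. The values of Igfbp6 and Igfbp4 overlapped, as did those of Igfbp4 and Igf2r and those of Igfbp3 and Igf1.
In TAC libraries 1 and 2, those whose RPKM values were used, Igfbp5 had 4.95 and 35.1 RPKM, Igfbp7 14.9 and 21.2, and Igfbp3 20.2 and 8.05. These 3 genes overlapped in their levels. Igfbp7 and Igfbp3 were above Igf2r, Igfbp4, Igfbp6 and the ligands in both libraries, whereas Igfbp5 in TAC library 1 was below Igf2r and Igfbp6, at 5.26 RPKM each. Igf1 had 1.29 and 1.26 RPKM there and Igf2 had 1.08 and 1.43, so the ligands overlapped.

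**Figure D4:**
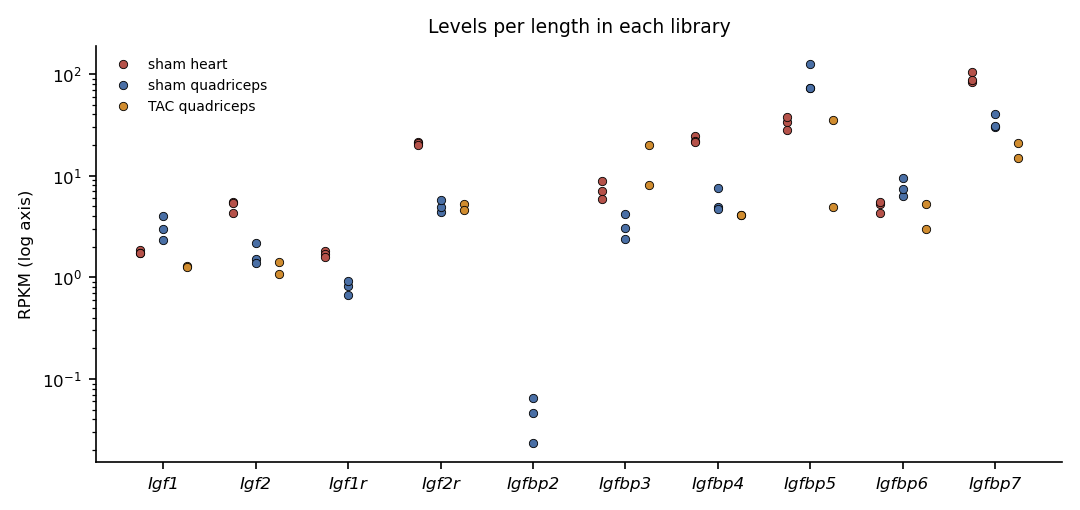
RPKM (log axis) of the 10 genes, 1 point for each library of sham heart, sham quadriceps and TAC quadriceps (libraries 1 and 2). Igfbp2 was 0 in heart and is not drawn there, and Igfbp2 and Igf1r have no TAC values; Igfbp7 is highest in heart and Igfbp5 in sham quadriceps.

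Within the libraries, Igfbp7 made up 54.2% to 59.3% of the summed per-length counts of Igfbp3 to Igfbp7 in heart, and 17.9% to 30.1% in sham quadriceps. Igfbp5 made up 18.7% to 21.7% in heart. The Igfbp3 share was 3.97% to 5.74% in heart. The leading binding protein transcript was thus Igfbp7 in each heart library and Igfbp5 in each sham quadriceps library.

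More of the IGF pathway was tested between heart and quadriceps than in TAC. The counts of each list below stand beside 32.2% of all transcripts called higher and 34.4% lower in quadriceps with TMM. With library totals these shares were 13.3% and 62.6%. Of the 12 other IGF availability genes 10 were tested, with 2 higher and 5 lower in quadriceps, or 2 and 8 with library totals. The higher ones were Igfals, the acid-labile subunit that joins IGF and IGFBP3 in a ternary complex, with a log2 fold change of 2.32 (edgeR adjusted p = 6.4e-05), and Pappa2, a protease of IGFBP3 and IGFBP5, with 2.81 (edgeR adjusted p = 0.0017). Their levels were low, at 10.001 and 4.62 mean normalized counts in heart and 49.8 and 33.8 in quadriceps. The largest decreases were those of Stc2, an inhibitor of pappalysins, at -3.46 (edgeR adjusted p = 2.0e-07) and of the serine protease Htra3 at -2.64 (edgeR adjusted p = 3.6e-07).
Among the insulin and IGF receptor signalling genes 31 of 32 were tested, and 12 were higher and 14 lower, or 2 and 20 with library totals. Foxo4, a transcription factor inhibited by Akt, was higher in quadriceps at 1.88 (edgeR adjusted p = 9.4e-07), and its relative Foxo3 was lower at -2.06 (edgeR adjusted p = 9.8e-07). Grb14, an adaptor that inhibits the insulin receptor, was lower at -2.36 (edgeR adjusted p = 1.1e-07), with mean normalized counts of 4219 in heart and 819 in quadriceps. Rictor, a subunit of mTOR complex 2, was at 1.03 (edgeR adjusted p = 1.5e-05) with TMM and 0.28 (edgeR adjusted p = 0.055) with library totals.
Of the 7 growth hormone axis genes 3 were higher and 2 lower in quadriceps with TMM, and 1 was higher and 4 lower with library totals. Stat5b, the transcription factor through which growth hormone induces Igf1, was higher at a log2 fold change of 2.23 (edgeR adjusted p = 4.4e-07), and its kinase Jak2 at 1.003 (edgeR adjusted p = 0.00070) with TMM, but at 0.27 (edgeR adjusted p = 0.276) with library totals. The feedback inhibitors Cish and Socs3 were lower, at -2.48 (edgeR adjusted p = 0.0030) and -0.68 (edgeR adjusted p = 0.042). Cish varied among the quadriceps libraries, with 278, 43.8 and 37.5 normalized counts in libraries 1 to 3.
The imprinted H19, a non-coding RNA next to Igf2, was far higher in quadriceps, at 35598, 22081 and 17398 normalized counts against a mean of 276 in heart, with a log2 fold change of 6.50 (edgeR adjusted p = 1.0e-07), whereas Igf2 itself was lower there. The IGF2 mRNA binding protein gene Igf2bp3 was higher at 1.95 (edgeR adjusted p = 9.0e-05). In the CCN family, matrix proteins with an IGF binding protein domain, 4 of 5 tested genes were lower in quadriceps, led by Ctgf at -1.997 (edgeR adjusted p = 1.3e-05) and Wisp1 at -1.69 (edgeR adjusted p = 0.00082).

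Cell type markers differed between these tissues too, where 32.2% of all transcripts were called higher and 34.4% lower in quadriceps with TMM. All 6 endothelial markers, 6 of 7 leukocyte markers and 4 of 7 fibroblast markers were lower in quadriceps, with endothelial sums of 4842 to 5499 normalized counts against 15914 to 17069 in heart. The fibroblast sums were 15276 to 21347 in quadriceps and 21954 to 24760 in heart. All 5 adipocyte markers were higher in quadriceps, with sums of 4007, 1756 and 500 in libraries 1 to 3 against 14.7 to 53.6 in heart. Quadriceps library 1, which had the highest adipocyte sum, also had the highest normalized count of Igf1, Igf2, Igfbp4, Igfbp6 and Igfbp7 among the 3. That library also had the highest fibroblast, smooth muscle and pericyte, Schwann cell, erythroid and cardiomyocyte sums. Its muscle fibre and satellite cell sums were the lowest, and the endothelial and leukocyte sums were highest in library 3. All 3 satellite cell markers were higher in quadriceps with TMM and 2 with library totals, and Pax7 and Myf5 were at 0 counts in every heart library. The part of these cell types in the differences of the IGF genes was not tested.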

How the data were processed

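RNA sequencing data of 9 libraries were used, 3 each of sham heart, sham quadriceps and TAC quadriceps. After trimming (Trim Galore!) and alignment to mm10 (STAR), the authors counted reads on RefSeq transcripts with Rsubread, and the deposited counts are raw. Versions were not given in the sources used here. The deposited RPKM values are the counts over transcript length and library total, and each library total was recovered from this relation. The TAC table holds 587 extracellular-protein genes. Columns of fold changes, test statistics and p-values from the authors' own comparisons were not used. The number of library columns left unused is 1, the RPKM column of TAC library 4, whose number is not in the labels.

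Rows exceeding 5 counts in 2 or more libraries were tested with the quasi-likelihood test of edgeR 4.0.16 in R 4.3.3 after TMM normalization, without a block, and Benjamini-Hochberg adjusted over the table. A gene is represented by the transcript of the TAC table, or otherwise by its most counted one. The alternatives were library totals, RLE size factors, DESeq2 1.42.0, limma 3.58.1 on log2(RPKM + 0.5) with 5 libraries for TAC, other count filters, the replicate number as a block, 1 transcript per gene name and leaving out each library. The same 4 numbered libraries without the block were added after the data were seen. Same-numbered libraries did not deviate together (r = 0.061 for TAC, -0.043 to 0.061 for the tissues). From each pathway list up to 2 largest rises and 2 largest falls among called genes were named, and the 3 genes nearest to Igfbp5 and to Igf1. The members and lists were chosen with earlier results of these data known. The procedure was tested on simulated data. Gene positions come from GENCODE vM21 on GRCm38, and motif matches on both strands from RefSeq promoters. Python 3.11.15 with pandas 2.3.3 and matplotlib 3.10.9 was used for tables and figures.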

Additional observations from a re-analysis of the deposited data

How the results depend on the processing

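Of the 17 gene comparisons, 235 values under alternatives gave 203 with the same direction and side of the threshold, 15 that lost and 10 that gained the call, and 7 that changed sign. The sign changes in TAC were those of Igf2 (-0.43 with library totals, -0.31 with limma on RPKM), Igf2r (-0.033 and -0.026), Igfbp4 (-0.47 and -0.40) and, without TAC library 2, Igfbp6 (0.021), and the cause was not tested beyond the shift of the median of all genes given above. In TAC the number of genes called was 2, and it was 5 with limma on RPKM, where the median log2 fold change of all genes was -0.43. Igfbp6 (-0.86) and Igfbp7 (-0.89) were among these 5, and the share of all genes called with limma is not given here. The number was 1 with the numbered libraries 1 and 2 of each group without the block, and 0 to 3 when 1 library was left out. The number past the study's criterion was 2, with 3 with library totals, where Igf1 joined, 1 in these 4 libraries without the block and 1 to 2 when 1 library was left out. With the replicate block these 4 libraries gave 2 calls, Igfbp3 (log2 fold change 2.51, edgeR adjusted p = 1.0e-05) and Igfbp5 (-2.17, edgeR adjusted p = 0.00014). Igf1 was not called there (-0.59, edgeR adjusted p = 0.349). A block fitted to 4 libraries leaves little to measure their spread, so these adjusted p-values carry little weight. Without the block the edgeR adjusted p of the same libraries was 0.013 for Igfbp3 and 0.156 for Igfbp5. Between the tissues the replicate block left 7 of 8 calls, since Igf1r lost its own (adjusted p = 0.060). The number past the study's criterion there was 1, and it was 0 with library totals, 0 with limma on RPKM, 2 with no count filter, where Igfbp2 entered, and 0 to 1 when 1 library was left out. The same-numbered libraries share only a number. With 3 libraries per group, differences of the size seen for Igf2, Igf2r and Igfbp4 are within the reach of the scaling, and the total of TAC library 4 was not used.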
